A study of Mus musculus with 8 samples.

Results

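The collagen and laminin genes encode the chains of the main structural proteins of the extracellular matrix. They were taken as all genes whose symbol has the form of a collagen alpha chain (such as *Col4a1*) or of a laminin alpha, beta or gamma chain (such as *Lamb1*), on probe sets of the Affymetrix Mouse Gene 1.0 ST array that carry a single gene symbol. Where a gene had several probe sets, the brightest on average over the 8 arrays stood for it. The rule gave 54 genes, 44 collagens and 10 laminins, of 19938 genes with such a probe set. The study compared midbrain tissue that responds to WNT/b-catenin signaling with neighbouring tissue and with dopaminergic neurons. The arrays fell into 4 groups of 2. E14.5 neurons and E13.5 neurons were midbrain dopaminergic (mdDA) neurons sorted for green fluorescent protein (GFP) from the ventral midbrain of *Pitx3*GFP/+ embryos, in which 1 *Pitx3* allele carries GFP, on a mixed C57BL/6 x 129/Ola background. The other groups, mdDA domain and lateral domain, were cut by laser microdissection from stained, fixed sections of E12.5 BAT-gal embryos on a mixed B6D2F1 background, each pooled from 5 embryos. BAT-gal is a LacZ transgene driven by LEF1/TCF sites and a minimal promoter. The lateral domain served as the control tissue and stained for neither b-galactosidase nor PITX3. The sex of the embryos was not determined. The labels call the 2 arrays of each group technical replicates, so every p-value below measures the spread between such arrays and not between embryos. The study's methods refer to an earlier paper for the sorting and array analysis of the neurons. Stage, strain, transgene, isolation method and study of origin all differ between sorted neurons and dissected tissue and cannot be told apart.

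Each collagen molecule is wound from alpha chains into a triple helix. Fibrillar collagens form the banded fibers of connective tissue, collagen IV forms the sheet-like network of basement membranes, and the FACIT collagens (fibril-associated, with interrupted helices) decorate fibers. A laminin joins an alpha, a beta and a gamma chain, and laminin sheets are the scaffold on which basement membranes assemble, with nidogens and perlecan linking them to collagen IV. In the embryonic brain basement membranes lie under the pia, where the endfeet of radial glia attach, and around blood vessels. The chains are made mostly by vascular, perivascular and meningeal cells, and in part by neuroepithelial cells and neurons.

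Chains of the same trimer can lie side by side in the genome, and *Col4a1* with *Col4a2* is one such pair. Both encode chains of the common collagen IV trimer. In the RefSeq promoter table (GRCm38.p6) the annotated starts of the genes lie on opposite strands of chromosome 8 and overlap by 22 bases. The stretch is shown because both genes start within it and are read across it in opposite directions. It is given on the plus strand at chr8:11312801-11312830, with the bases from the start of *Col4a2* to the start of *Col4a1* in capitals:
Col4a2 and Col4a1 starts: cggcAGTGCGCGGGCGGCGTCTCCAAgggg
The capitals, which lie within both annotated transcripts, hold GGGCGG, the letters of a GC box. Of the 54 genes 40 had at least 1 window in that table, 44 windows in all, each reaching from 250 bases before the start into the transcript. GGGCGG occurred on either strand in 26 of the 44 windows (59.1%), against 35.7% of all 32851 windows. CCAAT occurred in 31.8% of the members' windows and in 37.4% of all windows, and TATAAA in 11.4% and 13.6%. None of these motifs contains another, and a match is only a match of letters. *Col4a1* gave log2 signals of 4.63 and 4.62 in E14.5 neurons, 4.39 and 4.79 in E13.5 neurons, 4.92 and 4.82 in the mdDA domain and 4.77 and 4.86 in the lateral domain. *Col4a2* gave 4.74 and 5.02 in E14.5 neurons, 4.57 and 4.83 in E13.5 neurons, 4.95 and 4.98 in the mdDA domain and 4.82 and 5.02 in the lateral domain. Neither passed the test in any of the 4 comparisons.

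The deposited values are RMA signals on a log2 scale, so a difference of 1 is a doubling of the signal. The array medians were 4.39 on all 4 sorted arrays and 4.57 to 4.60 on the 4 dissected arrays. Setting sorted neurons against the mdDA domain or the lateral domain therefore starts from a shift of the array medians of -0.20 or -0.21, and differences are also given below relative to it. Over all probe sets the arrays of a group correlated at 0.966 to 0.983. The median standard deviation (SD) of a member between the 2 arrays of a group ran from 0.080 in E14.5 neurons to 0.136 in the mdDA domain. The mdDA neuron markers *Th*, *Ddc*, *Slc18a2* and *Nr4a2* were higher in the mdDA domain, with *Th* at 9.28 and 9.13 there against 5.57 and 5.11 in the lateral domain. The marker *Pitx3* did not pass in the fit with the replicate number as a block. It gave 7.44 and 7.34 in the mdDA domain against 6.97 and 6.47 in the lateral domain (difference 0.67, adjusted p = 0.228, limma). Its unadjusted p in that fit was under 0.05. The paper, by contrast, lists *Pitx3* among the genes significantly enriched in the mdDA domain. Under the alternative settings run, 1 to 5 of these mdDA neuron markers were called higher. The reason for the difference from the paper was not tested. All 5 of the lateral markers, such as *Tal2*, were lower in the mdDA domain. The labels give the mdDA domain the cell type mdDA neurons, yet the progenitor gene *Nes* stood at 7.65 and 7.66 there, against 3.40 to 4.47 in sorted neurons.

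The collagen and laminin signals differed little among the groups, at levels from 2.92 (*Col28a1* in E13.5 neurons) to 6.49 (*Lamc1* in the mdDA domain). The means of the 4 groups spanned a median of 0.265 on the log2 scale per member, against 0.462 over all probe sets. No member spanned more than 1, and the widest was *Lamb2* at 0.808, whereas 17.1% of all probe sets spanned more than 1. Between 26 and 30 of the 54 members lay above the median of their array. That is a position within the array and no call of presence, because no detection level was used. Markers of other cells lay in the same range where they were low. The erythroid gene *Hbb-y* gave 3.83 and 3.83 in E14.5 neurons, against 10.70 and 10.67 in the mdDA domain. The neuron marker *Ddc* had a mean of 3.67 in the lateral domain. A small span at such levels therefore does not show steady expression, and the effect of low signal on the spans was not tested. As deposited, the mean was highest in the lateral domain for 24 members and in the mdDA domain for 23, and highest in E14.5 neurons for 4 and in E13.5 neurons for 3. With each array centred on its median that order turned, and E14.5 neurons were highest for 23 members, E13.5 neurons for 8, the mdDA domain for 10 and the lateral domain for 13.

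**Figure D1:**
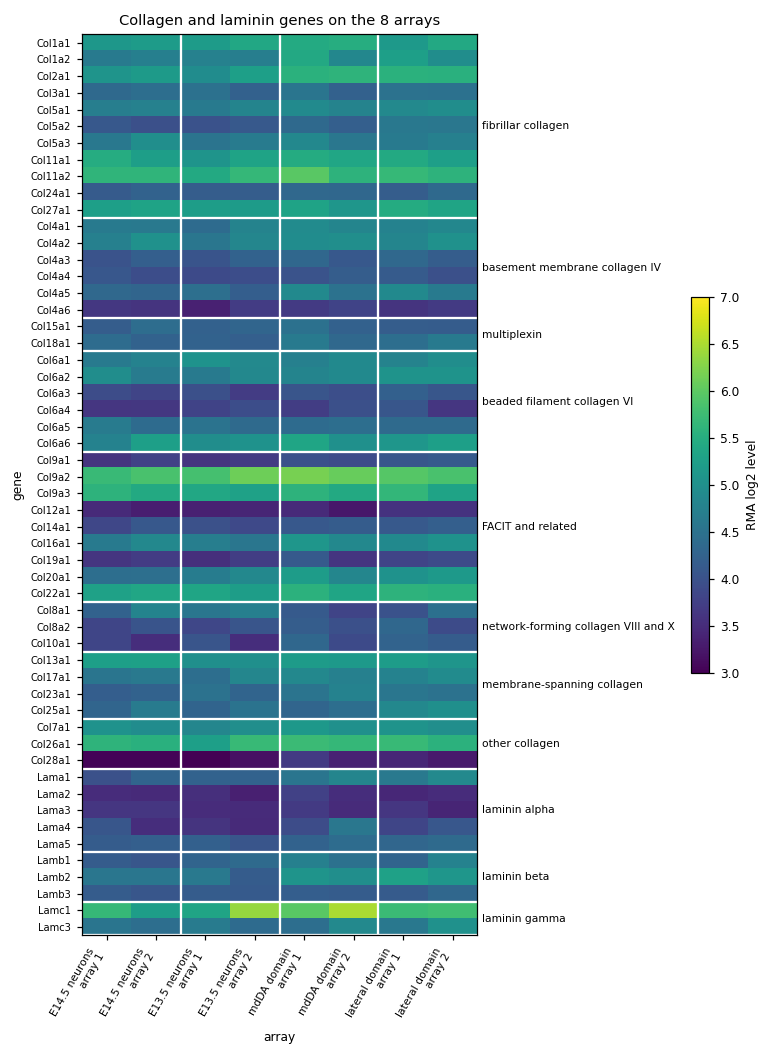
RMA log2 level of the 54 collagen and laminin genes (rows, grouped by role) on the 8 arrays (columns, E14.5 neurons, E13.5 neurons, mdDA domain and lateral domain from left to right). Most rows keep 1 colour across the groups, and no group means of a gene lie more than 0.808 apart.

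To ask whether sorted neurons had lower signals than dissected tissue, the mean of E14.5 and E13.5 neurons was set against each domain with limma. A gene was called at a false discovery rate (FDR) below 10% after Benjamini-Hochberg adjustment across the 35556 probe sets. Against the mdDA domain 4 of 54 members were lower (7.41%) and 0 higher, while 9.84% of all probe sets were called lower and 8.53% higher. Against the lateral domain 7 members were lower (13.0%) and 0 higher, while 14.46% of all probe sets were called lower and 11.41% higher. The members' shares of calls were thus close to or below those of all probe sets. As deposited, the 4 sorted arrays lay entirely below both mdDA arrays for 14 of 54 members and below both lateral arrays for 24 of 54. This held for 22.9% and 26.2% of all probe sets, a smaller share than among the members, mainly against the lateral domain. These counts do not take the shift of the array medians into account. At an unadjusted p under 0.05, 1 member was higher and 8 lower against the mdDA domain (all probe sets, 4218 and 5659), and 0 were higher and 8 lower against the lateral domain (all probe sets, 4780 and 6717). Before any centring, 48 of 54 members were below 0 against the mdDA domain and 49 of 54 against the lateral domain. Of all probe sets 60.2% and 61.2% were below 0. The members' medians were -0.17 and -0.18 (all probe sets, -0.08 and -0.09). Relative to the shift of the array medians the members' medians were 0.03 and 0.03, with 21 and 22 members below 0. The medians of all probe sets also lay above that shift (-0.20 and -0.21). On either scale the members' medians stayed below those of all probe sets. *Lamb2*, *Lama1* and *Col2a1* were called against both domains, which is 75.0% of the calls against the mdDA domain and 42.9% of those against the lateral domain. These comparisons share the sorted arrays. The counts rest on few arrays: without E14.5 array 1, mdDA array 1 or either lateral array 0 members were lower against the mdDA domain, without E13.5 array 1 or mdDA array 2 it was 1 and without E14.5 array 2 it was 2. Without lateral array 1 or 2 there were 0 and 2 lower against the lateral domain, and without E14.5 array 1 there were 4. With each array centred on its median 0 and 2 members were lower. In bulk RNA, fewer cells of a type and less RNA per cell cannot be told apart.

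**Figure D2:**
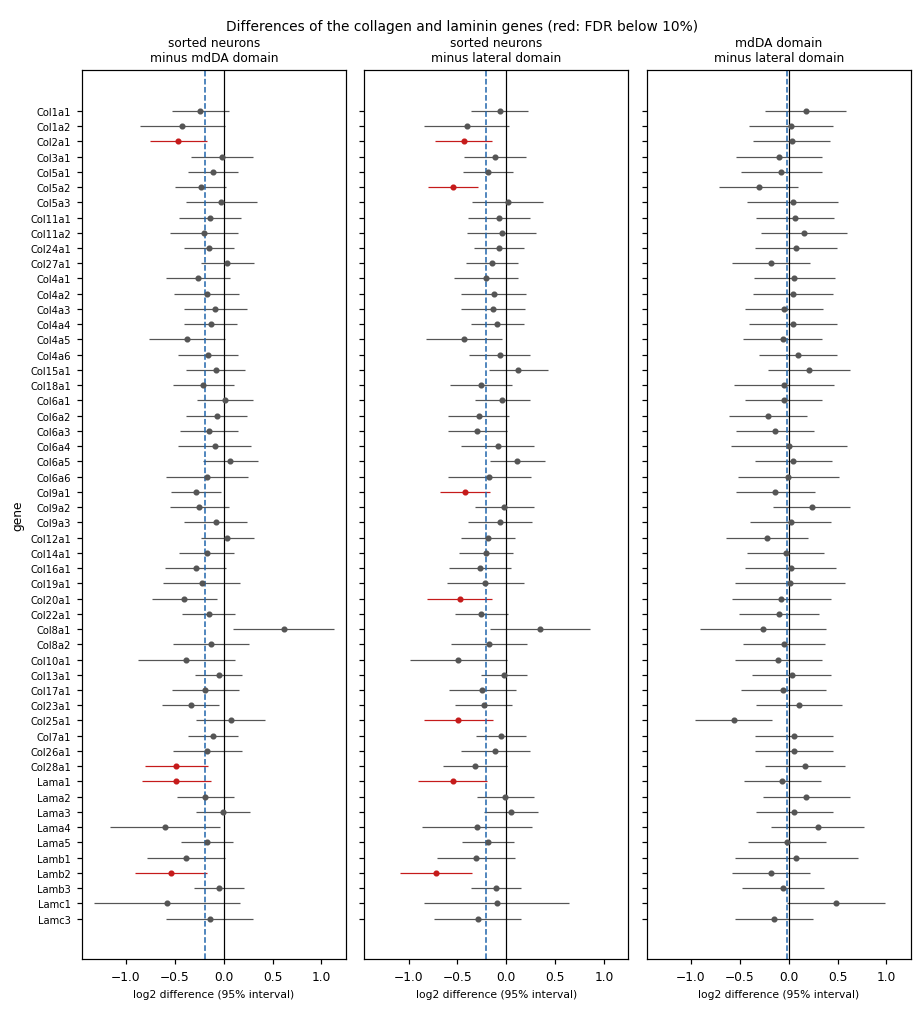
Differences in log2 level with 95% intervals for the 54 genes, sorted neurons minus mdDA domain (left), sorted neurons minus lateral domain (middle) and mdDA domain minus lateral domain (right), with calls below 10% FDR in red and the shift of the array medians as a dashed line. The 4 and 7 calls in the left and middle panels all lie below 0, and there are none in the right panel.

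Among the laminins, the beta chain *Lamb2*, a chain of the laminins of vessels and of the pial basement membrane, was lower in sorted neurons than in either domain. Its signals were 4.57 and 4.57 in E14.5 neurons and 4.62 and 4.16 in E13.5 neurons, against 5.06 and 4.97 in the mdDA domain and 5.29 and 5.10 in the lateral domain. All 4 sorted arrays lay below all 4 dissected arrays. The difference was -0.54 ± 0.15 (SE) against the mdDA domain (1.45-fold lower, adjusted p = 0.0731) and -0.72 ± 0.15 against the lateral domain (1.64-fold lower, adjusted p = 0.0217, 4 arrays against 2, limma). *Lama1*, the alpha chain of the early neuroepithelial laminin, gave 3.99 and 4.30 in E14.5 neurons and 4.26 and 4.26 in E13.5 neurons, against 4.55 and 4.82 in the mdDA domain and 4.62 and 4.88 in the lateral domain. Again no sorted array reached a dissected one. *Lama1* fell by 0.48 against the mdDA domain (SE 0.15, adjusted p = 0.0901) and by 0.55 against the lateral domain (SE 0.15, adjusted p = 0.0476). Of these calls, *Lamb2* against the lateral domain was kept with centred arrays (relative difference -0.51), and it was lost without lateral domain array 1. With centred arrays *Lamb2* was lost against the mdDA domain (adjusted p = 0.200, limma). *Lama1* was then lost against the mdDA domain (adjusted p = 0.267) and the lateral domain (adjusted p = 0.177). With 1 array left out, *Lamb2* and *Lama1* against the mdDA domain were each lost in 7 of 8 fits. *Lama1* against the lateral domain was lost in 2 of 8.

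**Figure D3:**
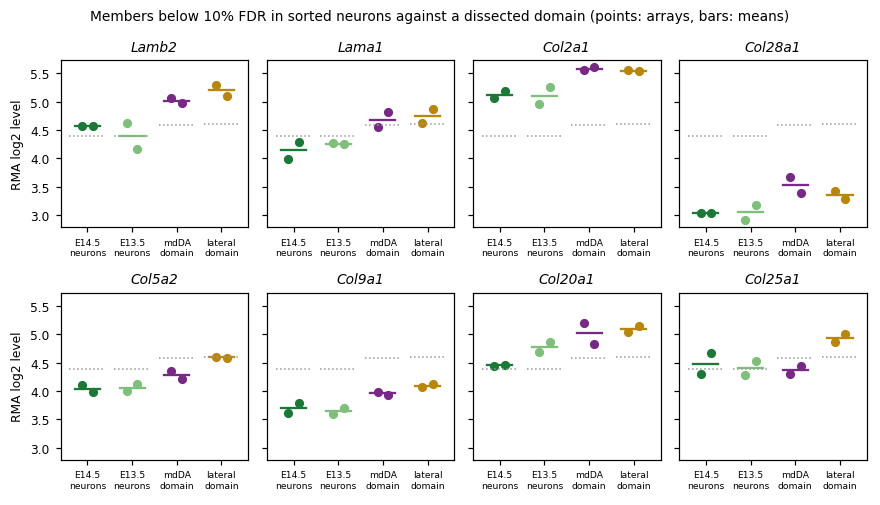
RMA log2 level of the 8 members called lower in sorted neurons against at least 1 domain, with a point per array, a bar for the mean of the 2 arrays and a dotted line for the mean array median of the group. The 4 sorted arrays lie below all 4 dissected arrays for each gene but *Col20a1* and *Col25a1*, and *Col25a1* is high in the lateral domain alone.

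The other 8 laminin chains passed no test. *Lamc1*, the gamma chain shared by most laminins, varied most between arrays of a group, with 5.33 and 6.37 in E13.5 neurons and an SD of 0.730, the largest of any member in any group. It gave 5.68 and 5.23 in E14.5 neurons, 5.98 and 6.49 in the mdDA domain and 5.73 and 5.77 in the lateral domain. The sorted and mdDA arrays overlapped, and the difference of -0.58 had an interval of -1.33 to 0.16. *Lamb1*, the beta chain that usually pairs with *Lamc1*, gave 4.16 and 4.07 in E14.5 neurons, 4.29 and 4.39 in E13.5 neurons, 4.74 and 4.49 in the mdDA domain and 4.29 and 4.78 in the lateral domain. Sorted arrays lay below both mdDA arrays, but the difference of -0.39 did not pass (adjusted p = 0.190, limma). *Lama4*, an alpha chain typical of endothelial basement membranes, gave 4.06 and 3.52 in E14.5 neurons and 3.60 and 3.48 in E13.5 neurons, against 3.93 and 4.59 in the mdDA domain and 3.84 and 4.09 in the lateral domain. Its difference against the mdDA domain was -0.60 (interval -1.16 to -0.04, adjusted p = 0.158), with arrays that overlapped. *Lama2*, *Lama3*, *Lama5*, *Lamb3* and *Lamc3* had group means that spanned 0.12 to 0.31.

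Of the 11 fibrillar collagens *Col2a1* was called against both domains and *Col5a2* against the lateral domain. *Col2a1*, the cartilage collagen that embryonic neuroepithelium and notochord also make, gave 5.07 and 5.18 in E14.5 neurons and 4.95 and 5.25 in E13.5 neurons. The mdDA arrays stood at 5.55 and 5.60 and the lateral arrays at 5.55 and 5.55, above all sorted arrays. The differences were -0.46 ± 0.12 (SE, adjusted p = 0.0587, limma) and -0.44 ± 0.12 (adjusted p = 0.0519), and neither passed with centred arrays (adjusted p = 0.206 and 0.255). With 1 array left out, these calls were lost in 6 and 3 of 8 fits. *Col5a2*, a minor chain that controls the width of fibers, gave 4.10 and 3.98 in E14.5 neurons, 4.00 and 4.12 in E13.5 neurons, 4.36 and 4.22 in the mdDA domain and 4.61 and 4.58 in the lateral domain. The lateral arrays were the highest and the 4 sorted arrays the lowest. *Col5a2* was 1.46-fold lower in sorted neurons than in the lateral domain (-0.54 ± 0.11, adjusted p = 0.0170), and this call was kept after centring on the array medians (relative difference -0.33). It was lost without lateral domain array 1 (adjusted p = 0.107).

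The chains of collagen I, the main collagen of connective tissue, did not pass. *Col1a2* gave 4.64 and 4.73 in E14.5 neurons and 4.76 and 4.71 in E13.5 neurons, against 5.42 and 4.85 in the mdDA domain and 5.27 and 4.96 in the lateral domain. The sorted arrays lay below all dissected arrays, but the dissected arrays of a pair differed widely, and the differences of -0.42 and -0.40 had adjusted p of 0.189 and 0.184 (limma). *Col1a1* gave 5.11 and 5.19 in E14.5 neurons, 5.20 and 5.40 in E13.5 neurons, 5.44 and 5.49 in the mdDA domain and 5.17 and 5.42 in the lateral domain. Here sorted and lateral arrays overlapped. *Col3a1*, which forms fibers with collagen I around vessels and in the meninges, had a span of 0.13 among the group means, and its neighbour in the genome is *Col5a2*. *Col11a2*, a partner of *Col2a1* in cartilage, gave 5.62 and 5.62 in E14.5 neurons, 5.43 and 5.67 in E13.5 neurons, 5.98 and 5.59 in the mdDA domain and 5.69 and 5.58 in the lateral domain, which overlapped throughout. The other 5 fibrillar genes (*Col5a1*, *Col5a3*, *Col11a1*, *Col24a1*, *Col27a1*) had differences between -0.19 and 0.04 in both comparisons of sorted neurons.

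Among the 9 FACIT and related genes *Col9a1* and *Col20a1* were called against the lateral domain. *Col9a1*, a chain of the collagen IX that coats *Col2a1* fibers, gave 3.61 and 3.78 in E14.5 neurons and 3.60 and 3.69 in E13.5 neurons, against 3.99 and 3.93 in the mdDA domain and 4.06 and 4.13 in the lateral domain. The groups of sorted and dissected arrays did not overlap. The difference from the lateral domain was -0.43 ± 0.11 (SE, adjusted p = 0.0377, limma) and from the mdDA domain -0.29 ± 0.11 (adjusted p = 0.142). Against the lateral domain the other chains of collagen IX did not follow it. *Col9a2* gave 5.71 and 5.86 in E14.5 neurons, 5.83 and 6.11 in E13.5 neurons, 6.18 and 6.08 in the mdDA domain and 5.95 and 5.84 in the lateral domain. *Col9a3* gave 5.59 and 5.42 in E14.5 neurons, 5.40 and 5.29 in E13.5 neurons, 5.58 and 5.44 in the mdDA domain and 5.66 and 5.33 in the lateral domain. For both, sorted and lateral arrays overlapped, with differences of -0.02 and -0.07. Against the mdDA domain the differences of *Col9a2* and *Col9a3* were -0.25 and -0.08, and neither passed. *Col20a1* gave 4.45 and 4.46 in E14.5 neurons, 4.69 and 4.86 in E13.5 neurons, 5.20 and 4.83 in the mdDA domain and 5.03 and 5.15 in the lateral domain. E14.5 neurons were the lowest group, and the difference of the sorted neurons from the lateral domain was -0.48 ± 0.14 (adjusted p = 0.0595). With centred arrays the calls of *Col9a1* and *Col20a1* against the lateral domain were lost (adjusted p = 0.214 and 0.223, limma). With 1 array left out they were lost in 2 and 4 of 8 fits. *Col22a1*, known from tissue junctions such as that of muscle and tendon, gave 5.29 and 5.37 in E14.5 neurons, 5.36 and 5.23 in E13.5 neurons, 5.57 and 5.36 in the mdDA domain and 5.59 and 5.54 in the lateral domain. Sorted arrays were below the lateral ones, at -0.26 (adjusted p = 0.179). *Col12a1*, *Col14a1*, *Col16a1* and *Col19a1* passed no test.

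As deposited, 60.2% of all probe sets lay below 0 in sorted neurons against the mdDA domain and 61.2% against the lateral domain. All 6 collagen IV genes did so against each domain, but none of the 6 passed a test. *Col4a5*, a chain of the basement membrane network encoded on the X chromosome, had the largest difference of them, at -0.37 against the mdDA domain (adjusted p = 0.195, limma) and -0.44 against the lateral domain (adjusted p = 0.118). Its signals were 4.35 and 4.30 in E14.5 neurons and 4.46 and 4.20 in E13.5 neurons, against 4.90 and 4.50 in the mdDA domain and 4.90 and 4.63 in the lateral domain, with no overlap. *Col15a1* and *Col18a1*, the multiplexins that sit in basement membranes, had group means that spanned 0.20 and 0.31. The 6 genes of collagen VI, which forms beaded filaments near basement membranes, had differences of -0.17 to 0.07 against the mdDA domain and -0.29 to 0.11 against the lateral domain. Of its usual trimer, *Col6a1* gave 4.64 and 4.77 in E14.5 neurons, 5.04 and 4.88 in E13.5 neurons, 4.74 and 4.90 in the mdDA domain and 4.78 and 4.96 in the lateral domain. *Col6a2*, its neighbour on chromosome 10, gave 4.95 and 4.66 in E14.5 neurons, 4.64 and 4.86 in E13.5 neurons, 4.81 and 4.89 in the mdDA domain and 5.06 and 5.06 in the lateral domain. *Col6a3* gave 3.92 and 3.81 in E14.5 neurons, 3.98 and 3.71 in E13.5 neurons, 4.06 and 3.96 in the mdDA domain and 4.23 and 4.08 in the lateral domain. In *Col6a2* and *Col6a3* the lateral arrays were above all sorted arrays, and in *Col6a1* the groups overlapped. *Col6a5* and *Col6a6* each had a second probe set, with a mean of 3.32 and 3.34 over all arrays, against 4.44 and 5.09 on the probe sets used.

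Outside these families *Col28a1* and *Col25a1* were called. *Col28a1*, a collagen known from peripheral nerve, gave 3.04 and 3.03 in E14.5 neurons and 2.92 and 3.18 in E13.5 neurons, against 3.67 and 3.39 in the mdDA domain and 3.43 and 3.29 in the lateral domain. As deposited, all sorted arrays lay below all dissected ones. The difference was -0.49 ± 0.13 (SE, adjusted p = 0.0694, limma) against the mdDA domain and -0.32 ± 0.13 (adjusted p = 0.160) against the lateral domain. The call of *Col28a1* was lost with centred arrays (adjusted p = 0.207) and in 7 of the 8 fits that left out 1 array. *Col25a1*, a membrane-spanning collagen that neurons make, gave 4.31 and 4.66 in E14.5 neurons, 4.28 and 4.52 in E13.5 neurons, 4.30 and 4.44 in the mdDA domain and 4.87 and 4.997 in the lateral domain. Both lateral arrays stood above the other 6. The difference of the sorted neurons from the lateral domain was -0.49 ± 0.15 (adjusted p = 0.0658), and from the mdDA domain 0.07 (interval -0.28 to 0.43). The call of *Col25a1* was lost with centred arrays (adjusted p = 0.247, limma) and in 4 of the 8 fits that left out 1 array. *Col8a1*, a chain of the network under endothelial cells, was the member with the largest positive difference against the mdDA domain. It gave 4.26 and 4.81 in E14.5 neurons and 4.57 and 4.73 in E13.5 neurons, against 4.13 and 3.83 in the mdDA domain and 4.01 and 4.48 in the lateral domain. All sorted arrays lay above both mdDA arrays, and the difference of 0.61 ± 0.21 did not pass as deposited (adjusted p = 0.123) but did with arrays centred on their medians (0.81, adjusted p = 0.0515). *Col26a1* gave 5.60 and 5.54 in E14.5 neurons, 5.25 and 5.70 in E13.5 neurons, 5.72 and 5.66 in the mdDA domain and 5.70 and 5.57 in the lateral domain, which overlapped. The remaining genes of these groups (*Col7a1*, *Col8a2*, *Col10a1*, *Col13a1*, *Col17a1*, *Col23a1*) passed no test.

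To set the dopaminergic domain against its lateral neighbour, limma was run over the 4 dissected arrays with the replicate number as a block, because the study's methods name a paired test. It called 0 of 54 members higher or lower, while 1.52% of all probe sets were called higher and 1.1% lower. At an unadjusted p under 0.05, 1 member was lower and 0 higher, while 2459 of all probe sets were lower and 2408 higher (13.7% together). That member was *Col25a1*, at -0.56 ± 0.15 (SE, interval -0.96 to -0.17, adjusted p = 0.227), with the arrays given above. The members' median difference was 0.01, with 28 above and 26 below 0. The half-width of a member's 95% interval had a median of 0.413, which is the precision these arrays gave. *Lamc1* had the largest positive difference, 0.49, with an interval of -0.02 to 0.99, and it was 0.23 without mdDA array 2 and 0.74 without mdDA array 1.

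E14.5 neurons were compared with E13.5 neurons over the 4 sorted arrays. No member was called, none had an unadjusted p under 0.05, and 0% of all probe sets were called in either direction (0 of 35556; 955 higher and 1201 lower at an unadjusted p under 0.05, and 9 and 11 called when all 8 arrays entered the limma fit). The members' differences ran from -0.39 (*Lamc1*) to 0.28 (*Col13a1*), with a median of 0.03. *Lamb2*, *Col2a1* and *Col5a2* had differences of 0.18, 0.02 and -0.02 between the stages. Taken stage by stage, 1 member was lower against the mdDA domain in E14.5 neurons (*Col20a1*, -0.56, adjusted p = 0.0869, limma) and 1 in E13.5 neurons (*Lamb2*, -0.63, adjusted p = 0.0888). That is 1.85% of the members each, while 7.37% and 6.28% of all probe sets were lower and 6.88% and 6.27% higher. Against the lateral domain 6 members were lower in E14.5 neurons (11.1%, with 11.79% of all probe sets lower and 9.97% higher) and 5 in E13.5 neurons (9.26%, with 10.82% lower and 9.38% higher). *Lamb2*, *Col2a1*, *Col5a2* and *Col9a1* were in both of these sets. Whether the stages differ in this was not tested beyond the stage comparison.

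Genes for proteins that share the matrix with these chains were set against the same domains. The counts of this and each later list stand beside the shares over all probe sets. Of all probe sets 9.84% were called lower and 8.53% higher against the mdDA domain, and 14.46% lower and 11.41% higher against the lateral domain. Of 8 basement membrane partners, 3 were lower and 0 higher in sorted neurons than in the mdDA domain, and 5 were lower and 0 higher than in the lateral domain (list medians -0.30 and -0.41, all probe sets -0.08 and -0.09). *Sparc*, a collagen-binding protein that basement membranes need for collagen IV, gave 7.65 and 7.71 in E14.5 neurons and 7.45 and 6.94 in E13.5 neurons, against 8.92 and 8.69 in the mdDA domain and 8.54 and 8.43 in the lateral domain. It was 2.58-fold lower than in the mdDA domain (-1.37 ± 0.17, adjusted p = 0.00773, limma) and 2.07-fold lower than in the lateral domain (-1.05 ± 0.17, adjusted p = 0.00777). The nidogens *Nid1* and *Nid2*, which link laminin to collagen IV, fell by 0.78 and 0.84 against the mdDA domain and by 0.71 and 0.50 against the lateral domain, with all sorted arrays below all dissected ones for both. Against the mdDA domain both calls were lost without either mdDA array. Against the lateral domain *Nid1* was lost without either lateral array and *Nid2* in 6 of the 8 fits that left out 1 array. *Fbln1* and the perlecan gene *Hspg2* passed against the lateral domain, at -0.67 and -0.33, calls lost in 3 and 5 of those 8 fits, and gave -0.30 and -0.30 against the mdDA domain without passing. With array medians centred, *Sparc* remained below the threshold against both domains and *Nid2* against the mdDA domain, and the other calls of this group were lost. The list was split: as deposited, 3 of the 8 partners had a difference above 0 against the mdDA domain and 2 against the lateral domain. For 1 and 2 partners all sorted arrays lay above both arrays of that domain.

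Of 13 other matrix proteins, 3 were lower and 2 higher in sorted neurons than in the mdDA domain, and 3 lower and 1 higher than in the lateral domain (list medians 0.03 and -0.24). Fibronectin (*Fn1*), which vessels and meninges deposit, gave 4.67 and 4.95 in E14.5 neurons and 4.58 and 4.57 in E13.5 neurons, against 7.12 and 7.32 in the mdDA domain and 7.10 and 6.98 in the lateral domain. It was 5.78-fold lower than in the mdDA domain (-2.53 ± 0.13, adjusted p = 0.000765, limma) and 5.09-fold lower than in the lateral domain (-2.35 ± 0.13, adjusted p = 0.000188). The small proteoglycan *Bgn* fell by 1.73 and 1.26 against the same domains. The call of *Fn1*, *Bgn* and *Sparc* held against both domains under all 19 alternatives run. Periostin (*Postn*), a matrix protein of mesenchyme that binds collagen I, stood apart in the mdDA domain with 6.03 and 7.26, against 3.85 and 3.31 in the lateral domain and 3.10 to 3.72 on the sorted arrays. It was 8.39-fold higher in the mdDA domain than lateral to it (3.07 ± 0.45, adjusted p = 0.0881), a call that held without the replicate block but was lost when any of the 4 arrays was also left out (adjusted p of 0.129 to 0.188). *Postn* was 10.4-fold lower in sorted neurons than in the mdDA domain (-3.38 ± 0.37, adjusted p = 0.00591). Tenascin R (*Tnr*), a matrix protein of neural tissue, rose by 0.53 in sorted neurons against the mdDA domain and by 0.97 against the lateral domain, and neurocan (*Ncan*) by 0.68 against the mdDA domain. Against the mdDA domain the call of *Tnr* was lost in 4 and that of *Ncan* in 6 of the 8 fits that left out 1 array. *Reln*, which guides migrating neurons, was 1.70-fold lower in sorted neurons than in the lateral domain.

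**Figure D4:**
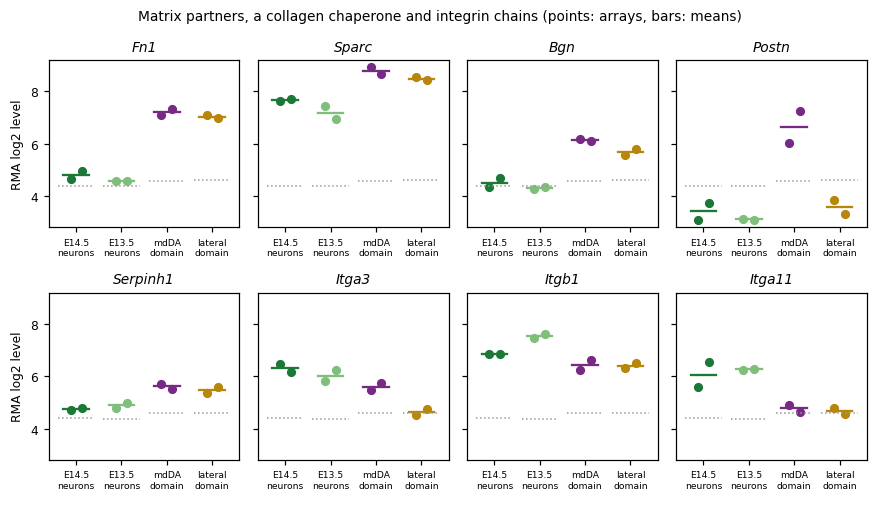
RMA log2 level of matrix partners (*Fn1*, *Sparc*, *Bgn*, *Postn*), the collagen chaperone *Serpinh1* and integrin chains, with a point per array, a bar for the mean of the 2 arrays and a dotted line for the mean array median of the group. *Fn1* lies between 4.57 and 4.95 on the sorted arrays, below the 6.98 to 7.32 of the dissected arrays, and *Itga11* lies above the dissected arrays on all 4 sorted arrays.

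Of 24 genes for collagen-modifying and cross-linking enzymes and chaperones, 2 were higher and 3 lower in sorted neurons than in the mdDA domain, and 2 higher and 4 lower than in the lateral domain (list medians -0.14 and 0.05). These counts lay near the shares over all probe sets (8.53% higher and 9.84% lower, and 11.41% higher and 14.46% lower). *Serpinh1*, the chaperone that holds procollagen in the endoplasmic reticulum, gave 4.72 and 4.80 in E14.5 neurons and 4.81 and 5.002 in E13.5 neurons, against 5.70 and 5.54 in the mdDA domain and 5.37 and 5.61 in the lateral domain. It fell by 0.78 (SE 0.13, adjusted p = 0.0156, limma) and by 0.65 (SE 0.13, adjusted p = 0.0159). These calls were lost without mdDA array 1 (adjusted p = 0.110) and without lateral array 2 (adjusted p = 0.119). The prolyl isomerase *Ppib* and the collagen galactosyltransferase *Colgalt1*, which also serve other secreted proteins, were higher, by 0.64 and 0.60 against the mdDA domain, calls lost without mdDA array 1 and, for *Colgalt1*, also without mdDA array 2, and by 0.68 and 0.87 against the lateral domain. *Adamts3*, a procollagen protease, and the lysyl oxidase *Loxl3* were lower against the mdDA domain. *Loxl1*, *Loxl3* and *Pcolce* were lower against the lateral domain. With array medians centred the calls of *Adamts3* and *Loxl3* against the mdDA domain and of *Loxl1*, *Loxl3* and *Pcolce* against the lateral domain were lost, and the first pair was also lost in 6 of the 8 fits that left out 1 array. Against the lateral domain *Loxl1* was lost in 2, *Loxl3* in 7 and *Pcolce* in 5 of those fits. Between the domains 0 of the 24 were called, with 3 at an unadjusted p under 0.05, all higher in the mdDA domain.

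Of 14 receptor genes, 3 were higher and 2 lower in sorted neurons than in the mdDA domain, and 3 higher and 4 lower than in the lateral domain (list medians 0.04 and -0.01). *Itga11*, an integrin alpha chain that binds fibrillar collagen, gave 5.60 and 6.55 in E14.5 neurons and 6.24 and 6.29 in E13.5 neurons, against 4.91 and 4.65 in the mdDA domain and 4.79 and 4.56 in the lateral domain. It was 2.63-fold and 2.82-fold higher (adjusted p = 0.0235 and 0.0108, limma), with no overlap, and the call against the mdDA domain was lost without either mdDA array. *Itgb1*, the beta chain common to the collagen and laminin integrins, gave 6.87 and 6.86 in E14.5 neurons and 7.48 and 7.62 in E13.5 neurons, against 6.26 and 6.64 in the mdDA domain and 6.33 and 6.51 in the lateral domain. It rose by 0.76 and 0.79, the first of which was lost without mdDA array 1. The E13.5 arrays stood highest. With E14.5 neurons alone the differences were 0.42 and 0.45, and neither passed (adjusted p = 0.185 and 0.128, limma). *Itga3*, an alpha chain of laminin receptors, gave 6.47 and 6.16 in E14.5 neurons, 5.81 and 6.23 in E13.5 neurons, 5.47 and 5.74 in the mdDA domain and 4.54 and 4.74 in the lateral domain. The arrays of the sorted stages overlapped, and its call against the mdDA domain (0.56, adjusted p = 0.0935) was lost in 6 of the 8 fits that left out 1 array. It was 1.95-fold higher in the mdDA domain than lateral to it (adjusted p = 0.0918). In sorted neurons it was 2.88-fold higher than in the lateral domain (adjusted p = 0.00245). The collagen-binding kinase *Ddr1* was 2.10-fold lower in the mdDA domain than lateral to it (6.42 and 6.29 against 7.45 and 7.41, adjusted p = 0.0781) and 2.03-fold lower in sorted neurons than in the lateral domain. Both calls between the domains held without the replicate block and were lost when any of the 4 arrays was also left out (adjusted p of 0.175 to 0.262 for *Itga3* and 0.144 to 0.167 for *Ddr1*). The collagen integrin chains *Itga1* and *Itga2* were lower in sorted neurons against both domains. With 1 array left out, *Itga1* was lost in 7 of 8 fits against the mdDA domain and in 6 against the lateral domain, and *Itga2* in 2 and 7. *Adgrg1*, a receptor for collagen III, was lower against the lateral domain, at -0.32, and was lost in 6 of 8 such fits. All of these calls of *Itga1*, *Itga2* and *Adgrg1* were lost with array medians centred.

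Markers of other cell types were measured on the same arrays. Of all probe sets 9.84% were called lower and 8.53% higher against the mdDA domain, and 14.46% lower and 11.41% higher against the lateral domain. Of 10 endothelial genes 7 were lower in sorted neurons than in the mdDA domain and 6 lower than in the lateral domain, and the mean of the list lay at 3.85 to 3.92 on the sorted arrays, against 4.54 to 4.66 and 4.44 to 4.55. Of 7 pericyte genes 4 were lower against each domain, with list means of 4.01 to 4.27 against 4.70 and 4.66. All 5 erythroid genes were lower against each domain, with list means of 4.15 to 4.28 against 7.45 to 7.48 and 7.55 to 7.61. Of 12 meningeal and mesenchymal genes 1 was lower against the mdDA domain and 2 against the lateral domain, while 9.84% and 14.46% of all probe sets were. The list means were 3.67 to 3.81 on the sorted arrays, against 3.87 to 3.94 and 3.95 to 3.98. Of 10 radial glia genes 7 and 9 were lower, with list means of 5.79 to 6.23 against 6.89 to 6.95 and 7.89 to 7.92. Of 5 lateral midbrain genes 2 were higher and 0 lower in sorted neurons than in the mdDA domain, and all 5 were lower than in the lateral domain. *Gad2* gave 7.97 and 7.83 in E14.5 neurons and 7.95 and 7.56 in E13.5 neurons, against 5.29 and 5.31 in the mdDA domain and 8.45 and 8.23 in the lateral domain. Microglial genes were called in 0 of 7 cases, with 3 lower against the mdDA domain at an unadjusted p under 0.05. Between the domains the endothelial and pericyte lists had 0 calls, the radial glia list had 4 lower and the meningeal list 1 lower in the mdDA domain, *Crabp2*, a call lost without either mdDA array in fits that had no block. The part of these cells in the differences of the collagen and laminin genes was not tested.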

How the data were processed

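The study measured RNA on 8 Affymetrix Mouse Gene 1.0 ST arrays, 2 technical replicates in each of 4 groups. The authors deposited gene-level log2 values made with RMA and sketch-quantile normalization in Affymetrix Expression Console 1.2, for 35556 probe sets, and these were used as deposited. Whether sorted and dissected arrays were normalized together is not given in the sources used here. The labels name the same RNA kit for all samples. Precision is limited by the number of arrays. Gene names came from GEO's annotation of the platform, in which 21789 have 1 symbol, 1621 several and 12146 none. All 54 members matched a RefSeq gene, and promoter windows came from RefSeq (GRCm38.p6).

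Differences, standard errors and p-values were computed with limma 3.58.1 in R 4.3.3 and checked on simulated data. The mdDA domain was tested against the lateral domain with the replicate number as a block. The mean of both sorted groups was tested against each domain over all 8 arrays, and E14.5 against E13.5 neurons over 4 arrays, both without a block. P-values were adjusted by Benjamini-Hochberg across every probe set (FDR below 10%). Levels of different genes were not compared. Fits of the mdDA against the lateral domain with an array left out had no block. Figures were drawn with matplotlib 3.10.9 in Python 3.11.15.

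Members and gene lists were chosen with earlier results of these data known, so a list is described by its counts only. Values are given per array for called members (up to 8 per direction), the 6 members with the highest mean, the chains of the usual trimers (*Col1a1*, *Col1a2*; *Col4a1*, *Col4a2*; *Col6a1*, *Col6a2*, *Col6a3*; *Lamb1*, *Lamc1*), and up to 4 called genes of each other list. *Lama4*, *Col3a1*, *Col4a5*, *Col8a1* and *Col13a1*, and called genes of a list beyond its first 4 (*Itga1*, *Itga2*, *Adgrg1*, *Hspg2*, *Tnr*, *Loxl3*, *Pcolce*), were named after their values were seen. Alternatives were another normalization (repeated quantile, centring on array medians), removal of dim probe sets, limma priors, thresholds, the probe sets tested or averaged, the block, the arrays fitted and each array left out.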

Additional observations from a re-analysis of the deposited data

Results flagged for a closer look

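*Col13a1*, a membrane-spanning collagen, stood out because the sorted stages lay on opposite sides of the dissected tissue on every array. It gave 5.25 and 5.28 in E14.5 neurons and 4.99 and 4.99 in E13.5 neurons, against 5.19 and 5.17 in the mdDA domain and 5.22 and 5.09 in the lateral domain. Both E14.5 arrays were above, and both E13.5 arrays below, all arrays of each domain. The stages differed by 0.275 on the log2 scale, whichever domain is taken, and the limma test of this difference over the 4 sorted arrays did not pass (adjusted p = 0.848). With array medians centred, the E13.5 arrays no longer lie below the domains.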

How the results depend on the processing

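The 4 members called lower in sorted neurons against the mdDA domain became 0 after repeated quantile normalization, 0 with array medians centred, 0 at FDR below 5%, 0 with a 1.5-fold minimum, 6 with 1-symbol probe sets only, 1 with E14.5 neurons alone, 1 with E13.5 neurons alone, and 0 to 3 when an array was left out. The 0 called higher became 1 (*Col8a1*) after quantile normalization, centring, removal of dim probe sets and with 1-symbol probe sets only, and 0 to 1 when an array was left out. Against the lateral domain the 7 lower members became 2 after quantile normalization, 2 with centring (*Lamb2*, *Col5a2*), 4 at FDR below 5%, 1 with a 1.5-fold minimum (*Lamb2*), 8 with 1-symbol probe sets only and 0 to 7 when an array was left out. Between the domains 1 member was lower with 1-symbol probe sets only (*Col25a1*, adjusted p = 0.0378, limma). *Lamc1* between the stages went to 0.12 without E13.5 array 2 and to -0.91 without E13.5 array 1. Over all probe sets, centring gave 5580 higher and 1782 lower against the mdDA domain (as deposited, 3032 and 3500) and 6705 and 2732 against the lateral domain (as deposited, 4057 and 5141), and between the domains the settings gave 4 to 1342 higher and 11 to 1160 lower (541 and 390). Replicate numbers did not pair the arrays (correlations of same-numbered deviations, -0.0374 to 0.0130). Without the replicate block 0 members differed between the domains, and with a replicate block 3 and 9 members were lower in sorted neurons than in the mdDA and lateral domains. No cause of these changes was tested.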
